A study of Mus musculus with 12 samples.

Results

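Of 12 mouse liver RNA-seq libraries, 6 held more than 1000 CPM (reads of a gene scaled to a common library total) of Gm43305, an unnamed noncoding gene, and the other 6 held less. The 6 livers were chosen by this measured level alone. Those above this threshold carried a larger share of reads on unspliced and noncoding transcripts than the 6 below it, and the differences are described here by transcript class and by gene. Because a measured value chose the livers, and every gene comes from the same libraries, differences between the 2 sides are given as descriptions with no test, and tests of differences were run between labelled diets and sexes only. The animals were WT C57BL/6J mice aged 9 months, fed AIN-93G chow with no supplement (control) or with an oil concentrate of VLCPUFA (fatty acids with very long chains and several double bonds) at 1% or 5% (w/w). The diets lasted 8 weeks and a fast of 5 h came before tissue was taken. Each diet is represented by 2 females and 2 males, whereas the series text states 6 animals per group. All libraries were made from RNA with an integrity number above 7, using a stranded poly(A) kit. The labels give each library its own animal number.

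The side above the threshold held 1 control female (N979), both females on 1% oil (N983 and N984), 1 male on 1% oil (N971), 1 female on 5% oil (N988) and 1 male on 5% oil (N975). The side below held the other control female (N980), both control males (N967 and N968), 1 male on 1% oil (N972), 1 female on 5% oil (N987) and 1 male on 5% oil (N976). Gm43305 stood at 6832 CPM in N984, 4495 in N979, 3656 in N983, 1745 in N971, 1467 in N975 and 1205 in N988. It stood at 819 CPM in N976, 725 in N980, 627 in N968, 627 in N972, 551 in N987 and 394 in N967. N988 was thus the liver just inside the threshold and N976 the liver just outside it, and levels among the 6 livers above spread much more widely than among the 6 below.

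A nuclear gene is transcribed with its introns, which the spliceosome removes before the mRNA is exported to the cytoplasm. A transcript that keeps an intron usually stays in the nucleus or, if exported, is often destroyed by nonsense-mediated decay, a pathway that removes mRNAs with an early stop codon. Several long noncoding RNAs, and the intron-retaining transcripts of many splicing factors, are also nuclear, so that the balance of such RNA against spliced mRNA differs between the nucleus and the cytoplasm of a hepatocyte.

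An unspliced transcript runs on into the intron where the spliced one joins its exons, and these places are shown here for Gm43305 and for the 3 protein-coding genes with the largest differences in intron share described below. Sequences are those of the GENCODE M21 transcripts (GRCm38), 25 bases on each side of the splice site, with exon bases in lower case and intron bases in capitals. Gm43305 lies on chromosome 14, from 54292443 to 54297456 on the minus strand, and is annotated as a noncoding processed transcript. The intron of Gm43305-202 covers chr14:54293534-54297280, and Gm43305-201 is a single exon that runs through it.
Gm43305 spliced junction: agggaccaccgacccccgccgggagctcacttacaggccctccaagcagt
Gm43305 unspliced, start of intron: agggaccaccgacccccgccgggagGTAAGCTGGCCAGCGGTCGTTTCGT
Gm43305 unspliced, end of intron: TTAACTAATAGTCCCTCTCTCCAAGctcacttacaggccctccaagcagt

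The intron of Ptbp1 that is removed in the coding transcript Ptbp1-216 and kept in Ptbp1-213 covers chr10:79862048-79862448 on the plus strand. That of Hsd3b7 is removed in Hsd3b7-201 and kept in Hsd3b7-206, and covers chr7:127801943-127802013 on the plus strand. That of Itih3 is removed in Itih3-201 and kept in Itih3-204, and covers chr14:30917788-30918274 on the minus strand. All 4 introns start with GT and end with AG, the letters that the spliceosome reads at most intron ends.
Ptbp1 spliced junction: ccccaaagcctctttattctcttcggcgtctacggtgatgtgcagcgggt
Ptbp1 unspliced, start of intron: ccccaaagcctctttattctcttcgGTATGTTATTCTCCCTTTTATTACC
Ptbp1 unspliced, end of intron: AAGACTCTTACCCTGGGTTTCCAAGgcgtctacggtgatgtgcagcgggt
Hsd3b7 spliced junction: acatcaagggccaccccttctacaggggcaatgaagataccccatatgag
Hsd3b7 unspliced, start of intron: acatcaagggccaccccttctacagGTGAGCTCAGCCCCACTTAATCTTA
Hsd3b7 unspliced, end of intron: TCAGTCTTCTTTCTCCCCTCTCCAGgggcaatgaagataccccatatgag
Itih3 spliced junction: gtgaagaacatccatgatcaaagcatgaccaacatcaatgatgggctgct
Itih3 unspliced, start of intron: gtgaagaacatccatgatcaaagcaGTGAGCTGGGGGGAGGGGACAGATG
Itih3 unspliced, end of intron: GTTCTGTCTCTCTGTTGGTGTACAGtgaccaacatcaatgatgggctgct

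Depth overlapped between the sides, at 5291390 to 12317200 estimated reads above and 6594320 to 15674100 below. Hepatocyte transcripts were abundant on both sides, with albumin (Alb) at 72544 to 95522 CPM above and 67291 to 131297 below, and summed hepatocyte markers overlapped between the sides. The control female N979 stood apart from the other 11 libraries: 7.96% of its transcript reads lay on annotated rRNA transcripts, against 0.0501% to 0.387% in the others, and Lars2, a gene that holds rRNA-like sequence, stood at 25390 CPM, against 180 to 1497 CPM in the other 5 livers above the threshold. N979 also had the lowest depth. The main counts and shares are therefore given with and without it.

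Within the gene itself, nearly all Gm43305 reads were assigned to the unspliced transcript. Gm43305-201 ranged from 1197 to 6796 CPM with a median of 2685 in the livers above, and from 392 to 814 with a median of 622 in those below. The spliced Gm43305-202 ranged from 0.119 to 2.03 CPM above and from 0.0958 to 0.479 below, and these ranges overlapped. The spliced form made up 0.00995% to 0.0298% of the gene's reads above and 0.0175% to 0.0911% below. The gene's level, which the threshold used, is thus almost wholly that of the unspliced form.

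Retained-intron transcripts, those whose annotation marks an unremoved intron, took a larger share of reads in every liver above the threshold than in any liver below it. They held 5.19% of transcript reads in N979, 5.12% in N984, 4.89% in N983, 4.84% in N988, 3.39% in N971 and 3.10% in N975. They held 2.62% in N968, 2.44% in N980, 2.37% in N972, 2.19% in N987, 2.03% in N976 and 2.02% in N967. The means were 4.42% ± 0.926 (SD, n = 6) above and 2.28% ± 0.242 (SD, n = 6) below, a ratio of 1.94. Both males above were nearer to the other side than the 4 females were, so the males and the females are each split without overlap but by different distances. Leaving out N979 gave a difference of 1.99 points, against 2.14 with it, and leaving out Gm43305 itself gave 1.90 points.

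The other classes followed the same sides in part. Within protein-coding genes, transcripts annotated as targets of nonsense-mediated decay took 2.16% to 6.66% of reads above and 1.61% to 1.77% below, and the highest value was N979, without which the upper end above was 2.98%. Coding transcripts of the same genes took 85.4% to 92.98% above and 93.9% to 94.96% below, again without overlap, and the lowest liver above was 89.7% without N979. Long noncoding genes other than Gm43305 took 0.777% to 1.24% of gene reads above (median 1.15%) and 0.574% to 0.664% below (median 0.616%). Mitochondrial mRNA, which has no introns and never passes through the nucleus, overlapped between the sides at 4.98% to 10.5% above and 7.12% to 11.8% below. The share of rRNA transcripts, apart from N979, overlapped as well, at 0.0501% to 0.387% above and 0.0523% to 0.0888% below. The retained-intron, nonsense-mediated decay, coding and long noncoding shares thus separated the sides, and the mitochondrial and rRNA shares did not.

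**Figure D1:**
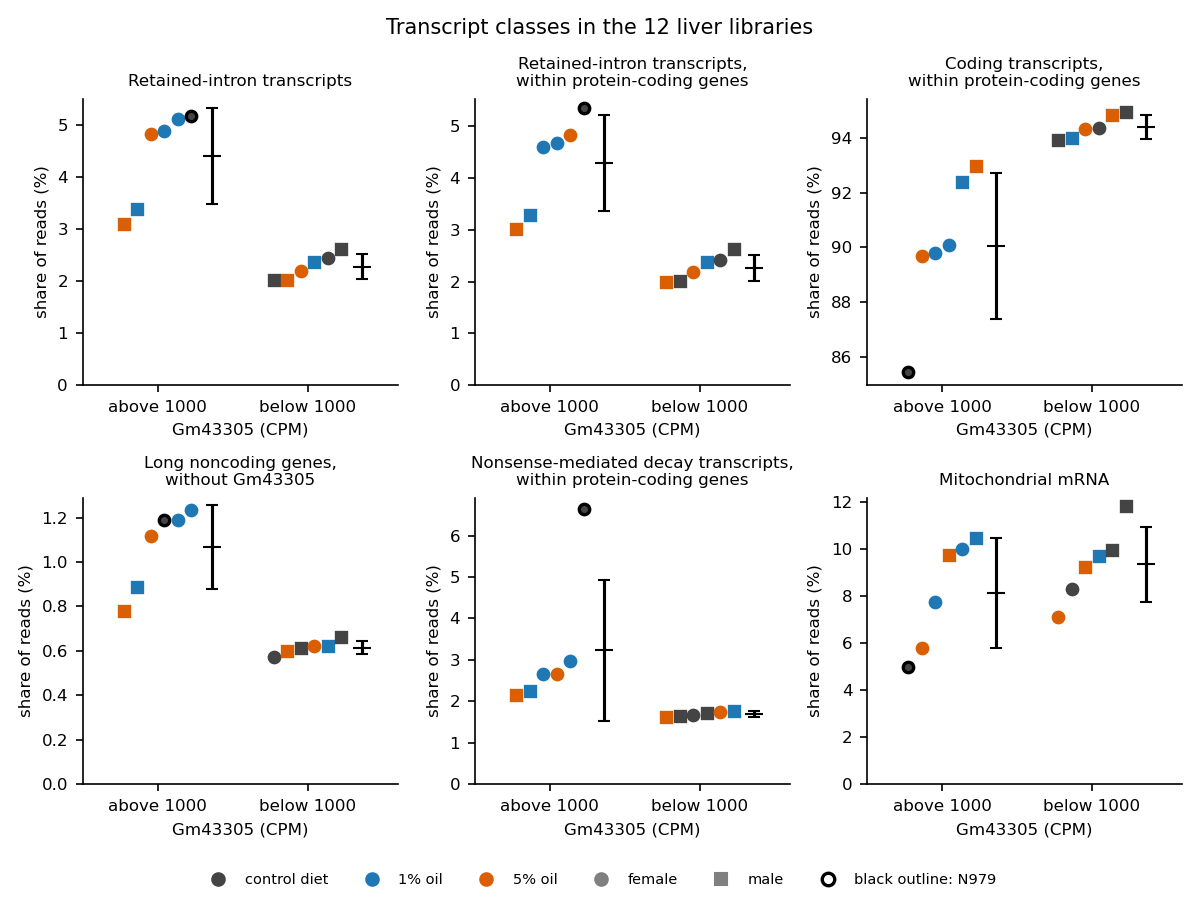
Share of reads (%) in 6 classes for each library, in the 6 livers above and the 6 below 1000 CPM of Gm43305; colours mark diet, shapes mark sex, the black outline marks N979, and bars give the mean and SD of each side. The retained-intron, coding, long noncoding and nonsense-mediated decay shares do not overlap between the sides, the mitochondrial shares do, and the axis of the coding panel does not start at 0.

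By annotated transcript type, the retained-intron class stood out. A transcript or gene is called higher here when its fitted log2 difference between the sides, with diet and sex as terms, was at least 1 and all 6 livers above exceeded all 6 below, and lower in the mirrored case. Of 32998 transcripts, 1155 were higher, which is 3.5% of those measured, and 200 were lower, which is 0.606%. Among 5650 retained-intron transcripts 711 were higher (12.6%) and 9 lower, with a median log2 difference of 1.20. Among 20910 coding transcripts 172 were higher and 163 lower, with a median of -0.24, against -0.01 over all transcripts. Transcripts of the type processed transcript, which lack an open reading frame, numbered 131 higher of 2465 (5.31%) and 15 lower, with a median of 0.43. Those of the nonsense-mediated decay type numbered 54 higher of 2080 and 10 lower, with a median of 0.22. The 54 are 2.6% of that type, below the 3.5% over all transcripts. Sense-intronic transcripts, which lie inside an intron of another gene on the same strand, had 6 higher of 29 and a median of 1.09, and reads from the unspliced host gene cannot be told apart from theirs. Leaving out N979, which makes the rule of no overlap easier to meet, gave 1336 higher and 209 lower transcripts. Among 5645 retained-intron transcripts measured both with and without it, 784 were then higher and 7 lower, with a median of 1.21.

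**Figure D2:**
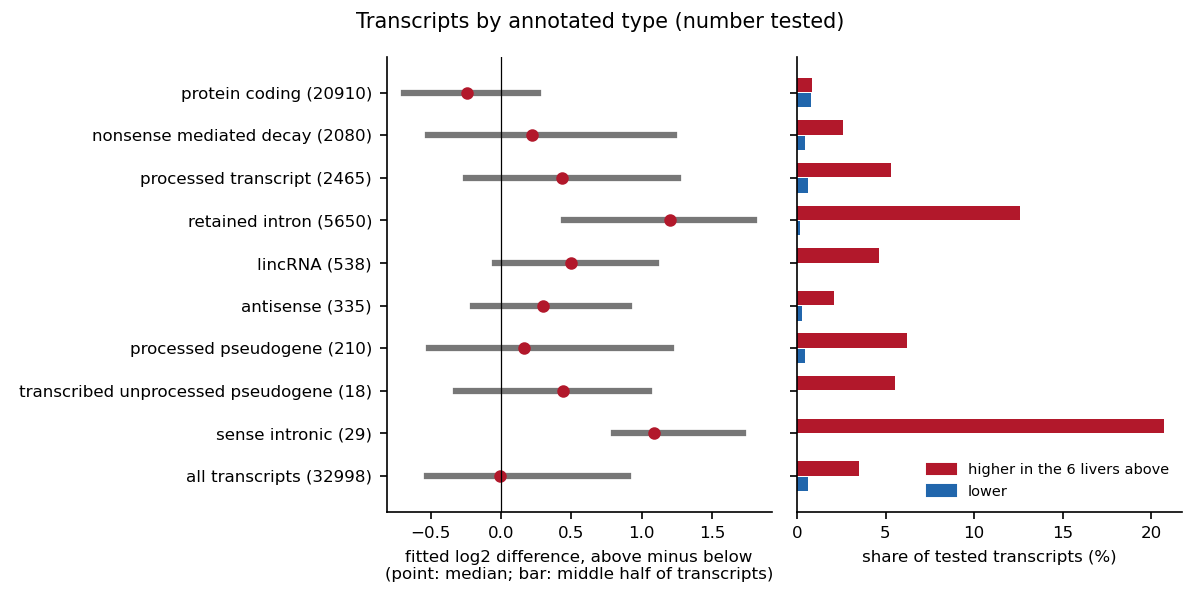
Left, fitted log2 difference of transcripts, livers above minus livers below, by annotated type, with the median as a point and the range between the quartiles as a bar. Right, the share (%) of each type called higher or lower: 12.6% of retained-intron transcripts were higher, against 0.823% of coding transcripts.

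The 10 transcripts with the largest differences, among those whose mean log2 CPM reached 1 and whose difference had the same sign in every diet, were 6 retained-intron transcripts (Psmf1-204, Decr2-207, Zc3h7a-209, Cnot4-205, Prpf39-205 and Psmd11-204), Hpd-205 of the processed transcript type, Snx17-208 of the nonsense-mediated decay type, and 2 annotated as coding (Acy3-203 and Idh1-203). Hpd-205 is a 3-exon fragment of the gene for 4-hydroxyphenylpyruvate dioxygenase, an enzyme of tyrosine breakdown. It stood at 309 scaled CPM in N979, 117 in N984, 69.0 in N983, 41.0 in N988, 8.29 in N971 and 7.11 in N975, and at 0.668 to 3.87 in the livers below. Decr2-207 belongs to a peroxisomal enzyme of unsaturated fatty acid oxidation, and stood at 5.77 to 24.8 above and 0 to 1.83 below. Prpf39-205, a retained-intron form of a U1 snRNP-associated splicing factor, stood at 6.24 to 13.3 above and 0 to 4.49 below. Idh1-203, from the gene of cytosolic isocitrate dehydrogenase, stood at 20.002 to 220.1 above and 2.15 to 11.7 below. In each of these transcripts the lowest liver above exceeded the highest below, which the rule required. Apart from Hpd-205 and Idh1-203, each had at least 1 liver below at 0.

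Intron retention was next followed gene by gene, as the share of a protein-coding gene's reads that fell on its retained-intron transcripts. Of 4677 genes with such a transcript and at least 100 reads on average, 376 had a share at least 5 points higher above the threshold without overlap, which is 8.04% of the genes measured. The mirrored case was 1 gene, Tbl3, or 0.0214%. The share was higher on average above the threshold in 3942 genes (84.3%). Over all 4677 genes the median share was 3.46% above and 1.66% below. In the 376 genes the median share was 19.8% above and 6.78% below. The median log2 difference of their retained-intron reads was 1.44, against 0.54 over all 4677 genes. That of their coding reads was -0.15, against -0.09 over all. Coding reads were lower in 252 of the 376 (67%), near the 59.6% over all genes measured (2788). As whole genes 4 of the 376 were called higher, against 59 of all 4677, and their median log2 difference as genes was 0.07. Within these genes the split of reads between transcripts differed while the median total of the gene was nearly the same. Without N979 the count of genes with a higher share was 400, and without N975 it was 556. With 1 library fewer the rule of no overlap is easier to meet, so these counts were bound to lean upward and are no check of the 376.

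**Figure D3:**
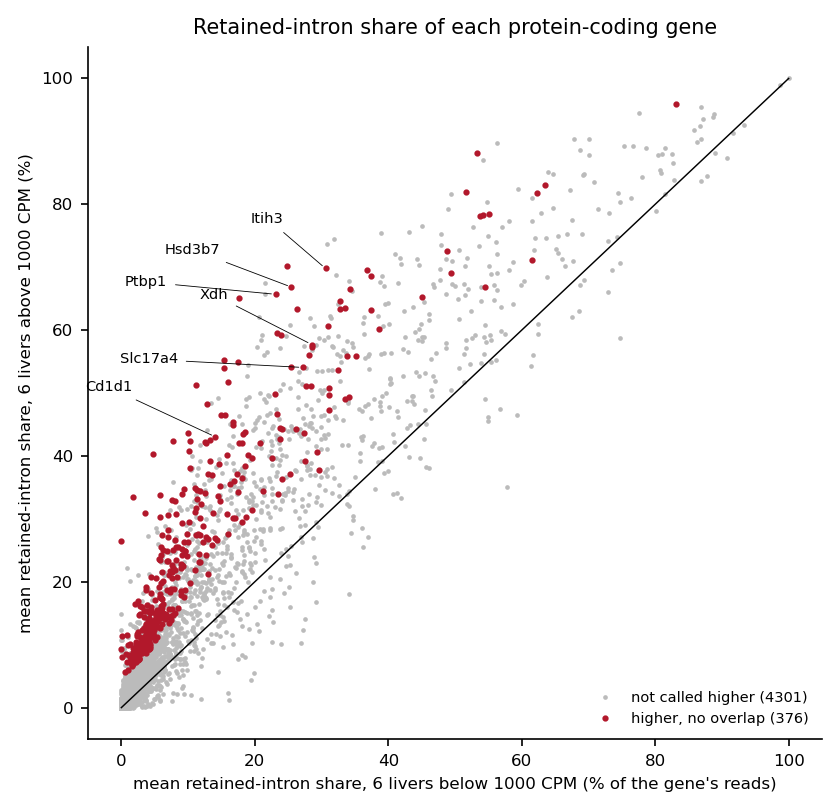
Each point is a protein-coding gene; the axes give its mean retained-intron share (% of the gene's reads) in the 6 livers below (x) and the 6 above (y) the threshold, and the line marks equal shares. The 376 genes with a share at least 5 points higher and no overlap are in red, and most other points also lie above the line.

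Large differences in intron share among genes with at least 500 reads on average were in Ptbp1, Hsd3b7, Itih3, Xdh, Cd1d1, Slc17a4, U2af2, Ist1, Atl2 and Dus1l. U2af2 and Ptbp1 are themselves splicing factors that bind pyrimidine-rich RNA. For Ptbp1 the retained-intron share ranged from 46.2% to 85.7% above (median 65.4%) and from 6.52% to 40.3% below (median 22.3%). Hsd3b7 encodes an enzyme of bile acid synthesis, and its share ranged from 40.0% to 84.5% above (median 70.3%) and from 16.3% to 35.7% below (median 25.5%). Itih3 encodes a heavy chain of the plasma inter-alpha-trypsin inhibitors made by the liver. Its share ranged from 49.0% to 79.8% above (median 73.5%) and from 23.1% to 40.5% below (median 30.1%). None of the 3 overlapped between the sides, which the call for a higher share requires. At the median most reads came from intron-keeping transcripts above and a minority below.

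At the introns printed earlier, the form that keeps the intron had the higher median above the threshold and the form that removes it had the lower. Ptbp1-213, which keeps the intron, had a median of 42.6 CPM above (28.6 to 44.1) and 12.8 below (1.48 to 22.1), while Ptbp1-216 had a median of 9.66 above (2.42 to 18.5) and 28.8 below (13.3 to 34.5). Hsd3b7-206 had a median of 199 CPM above (125 to 483) and 68.8 below (24.6 to 107), while Hsd3b7-201 had 92.4 above (34.9 to 242) and 265 below (223 to 363). Itih3-204 had a median of 743 CPM above (276 to 1198) and 173 below (143 to 192), while Itih3-201 had 281 above (165 to 301) and 353 below (245 to 569). The kept forms did not overlap between the sides in any of the 3 genes, and the removed forms overlapped. The annotated pairs also differ elsewhere: Ptbp1-213 has 4 exons and Ptbp1-216 has 14. Reads on sequence that transcripts share are split between them by estimate.

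**Figure D4:**
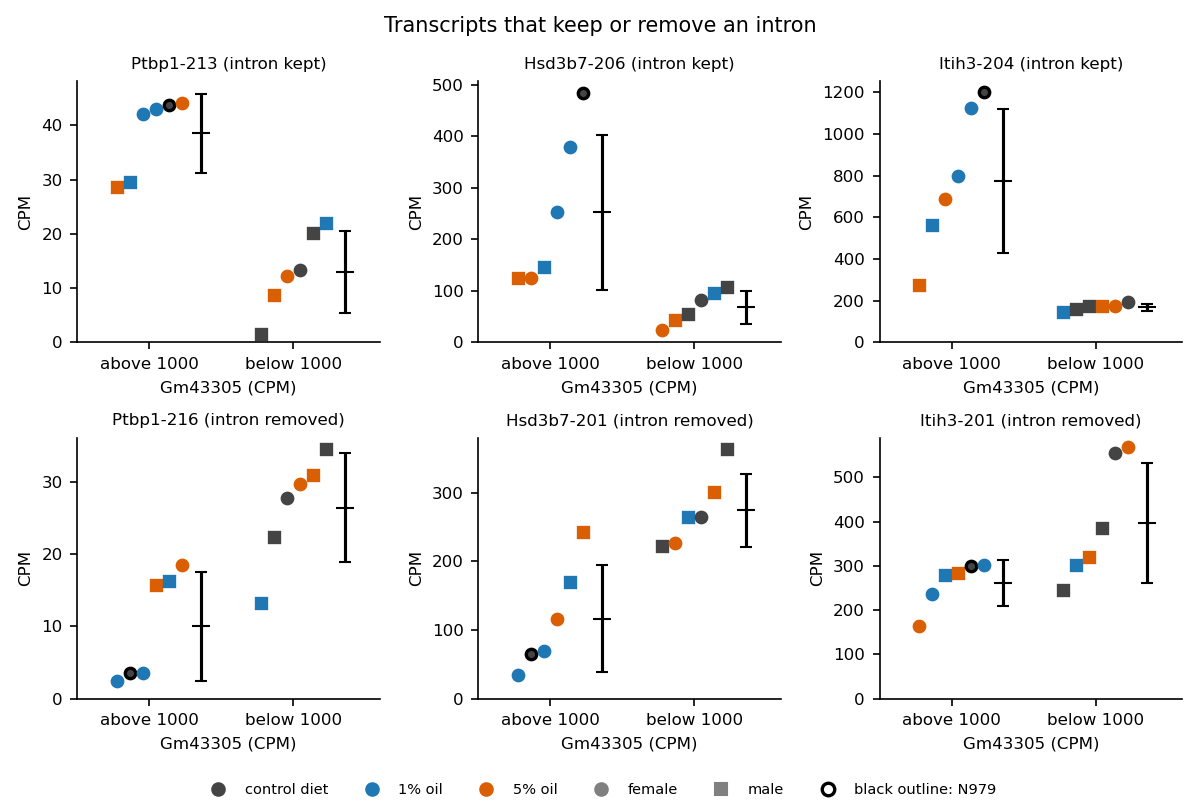
CPM of the transcript that keeps (top) and the transcript that removes (bottom) the printed intron of Ptbp1, Hsd3b7 and Itih3 in each library, with diet, sex and N979 marked and the mean and SD of each side as bars. The kept forms lie higher in the 6 livers above, with Itih3-204 at 276 to 1198 CPM against 143 to 192.

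The other genes of this group had the following shares. Xdh, the enzyme that makes uric acid from purines, had 58.5% above (48.8% to 63.0%) and 29.1% below (21.2% to 34.1%). The sides did not overlap in Xdh, which the call for a higher share requires. Cd1d1, which presents lipid antigens to T cells, had 45.5% above and 12.2% below. U2af2 had 37.2% above (29.8% to 53.2%) and 12.5% below (8.53% to 19.8%). The remaining 4, Slc17a4 (a transporter of organic anions), Ist1 (a factor of membrane remodelling), Atl2 (a GTPase that shapes the endoplasmic reticulum) and Dus1l (a tRNA-modifying enzyme), had medians of 34.9% to 52.4% above and 8.84% to 24.5% below. Dus1l nearly overlapped, with 24.03% in the lowest liver above and 23.90% in the highest below.

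Whole genes were compared in the same way. Of 13814 genes, 280 were higher, which is 2.03% of those measured, and 4 were lower, which is 0.029%. Protein-coding genes contributed 182 of 12501 (1.46%), with a median log2 difference of -0.03. Genes of long noncoding types contributed 60 of 905 (6.63%), with none lower and a median of 0.59. Pseudogenes contributed 32 of 355 (9.01%), with a median of 0.39, among them 10 of 43 transcribed unprocessed pseudogenes, and sense-intronic genes had 6 of 31 with a median of 1.21. The median over all genes was 0.00. Without N979 the counts were 288 higher, 240 of them shared, and 6 lower, 4 of them shared. Without N975 they were 493 and 24. Leaving out any 1 library gave 6 to 31 lower genes, with 31 without N972, 15 without N971 and 14 without N988. No overlap is easier to meet with 1 library fewer, which by itself can raise these counts.

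Among the 4677 genes measured for intron share 59 were called higher as genes, and 4 of these 59 also had a higher intron share, a share near the 8.04% over all 4677. In these 59 the median log2 difference of coding reads was 1.10 and that of retained-intron reads 1.51. Of the 182 protein-coding genes called higher, 126 (69.2%) have an annotated retained-intron transcript, against 58.6% of the 12501 measured. Their longest transcripts had a median of 4176 bases and their largest transcripts 12 exons, against 3398 bases and 9 exons, and the median GC content was 50.1% against 49.5%. They were less abundant in the livers below, with a median of 4.41 scaled CPM against 12.6. A call for higher requires lower values on that side, so the rule itself favours this gap.

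The named genes are the 15 with the largest log2 differences among the 211 called higher whose mean log2 CPM reached 1 and whose difference had the same sign in every diet. They comprise 6 long noncoding genes, 5 pseudogenes and 4 protein-coding genes, and values are CPM scaled by TMM, a normalization that assumes most genes do not differ. Among the long noncoding genes, Fendrr, which lies next to Foxf1 and is known from the developing mesoderm, ranged from 4.52 to 13.3 above (median 10.6) and from 1.35 to 2.82 below (median 2.01), a fitted log2 difference of 2.05 ± 0.27 (SE). The sense-intronic gene Gm43189 ranged from 2.82 to 6.11 above and from 0.43 to 1.10 below, a difference of 2.35 ± 0.32. Gm15675, a lincRNA, ranged from 10.8 to 25.4 above and from 2.62 to 7.52 below, a difference of 1.85 ± 0.26. Gm47486, Gm44597 and Gm13632 had differences of 2.12, 1.99 and 1.96. All 6 are low-abundance RNAs in liver, and all were higher above the threshold within each diet.

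Among the pseudogenes, Mug-ps1 was by far the most abundant. It is related to the murinoglobulins, plasma protease inhibitors made by the liver, and near-identical copies can exchange reads with it. It ranged from 451 to 817 scaled CPM above (median 507) and from 71.9 to 283 below (median 197), a log2 difference of 2.04 ± 0.19. Cyp2d36-ps, a copy of the Cyp2d cytochrome P450 genes, ranged from 3.33 to 12.4 above and from 0.562 to 3.13 below, a difference of 2.37 ± 0.43 and the largest by the rule. Ifi203-ps, related to the interferon-inducible p200 family, ranged from 4.12 to 9.84 above and from 1.05 to 3.44 below. Gm48119 and Gm49273, processed pseudogenes, had differences of 2.09 and 1.95. For all 5 the assignment of reads between the pseudogene and its parent genes is uncertain.

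Of the 4 protein-coding genes, Peg3, an imprinted zinc-finger gene expressed from the paternal copy, ranged from 8.71 to 30.7 above (median 24.0) and from 1.40 to 7.20 below (median 4.16), a log2 difference of 1.90 ± 0.39. F830016B08Rik ranged from 28.8 to 62.3 above and from 6.25 to 18.7 below, a difference of 2.02 ± 0.24. Acrbp, the acrosin-binding protein known from sperm, reached 20.1 in N979 and 4.75 to 9.84 in the other livers above, against 0.922 to 3.97 below. Gm21897 ranged from 2.13 to 5.80 above and from 0.43 to 1.25 below. Gm43305 itself, for reference, had a fitted difference of 1.74 ± 0.44, smaller than that of any of these 15 genes.

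A single gene met the naming rule among those lower above the threshold: mt-Nd6, a subunit of respiratory complex I and the only protein gene on the light strand of the mitochondrial genome. It ranged from 7.496 to 21.01 scaled CPM above (median 15.5) and from 25.9 to 60.5 below (median 39.2), a log2 difference of -1.25 ± 0.29, or -1.28 without N979. It was the only one of 15 mitochondrially encoded genes called, and their median was -0.13, or 0.11 without N979. The strand setting of the authors' counting is not given in the sources used here, so reads of the opposite strand cannot be told apart from those of mt-Nd6. The other 3 genes called lower, Sulf1, Upk3b and Gm14584, had at most 2.98 scaled CPM in any library.

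**Figure D5:**
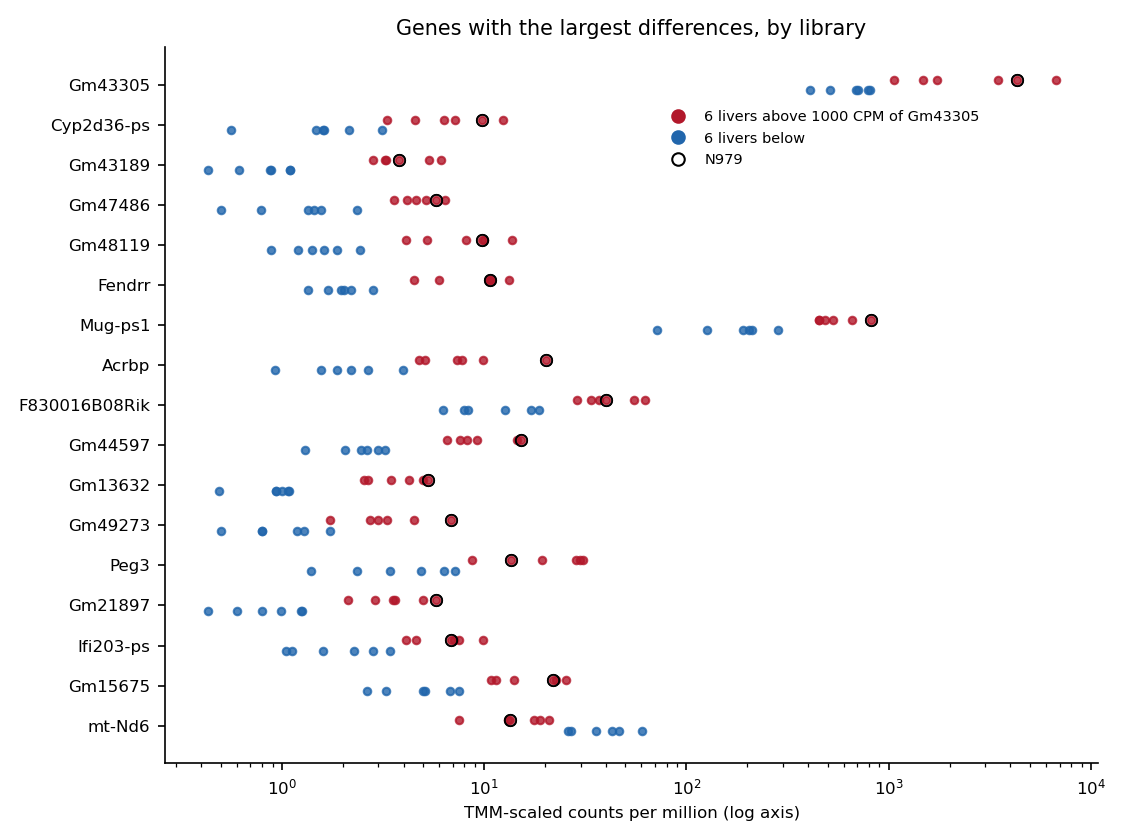
TMM-scaled CPM (log axis) of Gm43305, the 15 named genes higher above the threshold and mt-Nd6, with the 6 livers above in red, the 6 below in blue and N979 circled. Each gene separates the sides by the rule that chose it, and N979 has the highest Acrbp, at 20.1.

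Splicing factors and nuclear speckle genes were measured as a list. These proteins sit in speckles beside sites of splicing, and many of them regulate their own mRNA through a retained intron. Of 36 measured, 6 were higher (16.7%, against 2.03% of all genes) and none lower, 21 had all livers above exceeding all below (58.3%, against 4.32% of all genes), and the median log2 difference was 0.73, also 0.73 without N979, against 0.00 over all genes. The 3 with the highest CPM were Ddx5, an RNA helicase, with a difference of 0.81 ± 0.14, Hnrnpa2b1, an RNA-binding protein, with 0.09 ± 0.13, and Srrm2, a scaffold of speckles, with 0.90 ± 0.17. The list's summed level was 3540 to 4795 CPM above and 2063 to 2595 below. The 6 were Pnisr, an arginine-serine-rich nuclear protein, with a difference of 1.34 ± 0.16, the kinases Clk2 (1.33 ± 0.17) and Clk4 (1.17 ± 0.18), which phosphorylate SR proteins, Luc7l2 (1.26 ± 0.17), which works with the U1 particle, and the SR proteins Srsf11 (1.24 ± 0.18) and Srsf5 (1.17 ± 0.17). Srsf5 ranged from 185 to 352 scaled CPM above and from 99.2 to 167 below, and Pnisr from 66.6 to 86.1 above and from 26.9 to 46.7 below. Of 32 list members measured for intron share, all 32 had a higher mean share above the threshold, against 84.3% of all genes measured, and 9 met the rule for a higher share, against 8.04%.

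They included Srsf5, Tra2b, Clk1, Acin1, Snrnp70, Hnrnpa2b1, U2af1 and Arglu1. The retained-intron share of Snrnp70, a protein of the U1 particle, was 81.7% ± 3.27 above and 62.2% ± 6.58 below (SD, n = 6 each). That of Hnrnpa2b1 was 25.2% ± 6.46 above and 9.07% ± 2.34 below, while its level as a gene was nearly the same on both sides, with a log2 difference of 0.09 ± 0.13. Only Srsf5 of the 9 was also called higher as a gene. The list was among those chosen with earlier results of these data known, so its count is a description.

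Nuclear long noncoding RNAs had a higher summed level in every liver above than in any below. Of 14 measured from a list of 21, 2 were called higher, Kcnq1ot1, an imprinted antisense RNA, with a log2 difference of 1.64 ± 0.30, and Firre, a chromatin-bound RNA, with 1.35 ± 0.18, and the median was 0.76. The 2 are 14.3% of the list, against 2.03% of all genes and 6.63% of long noncoding genes. Firre ranged from 65.3 to 118 scaled CPM above and from 25.5 to 46.8 below. Malat1, the speckle RNA, had a difference of 1.29 ± 0.21 and ranged from 132 to 307 above and from 63.3 to 140 below, so that the sides overlapped narrowly. Neat1, which builds paraspeckles, had 1.34 ± 0.41 and ranged from 252 to 1033 above and from 155 to 341 below. The summed level of the list was 587 to 1685 CPM above and 367 to 566 below.

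Lists of abundant cytoplasmic mRNAs gave no calls, where 2.03% of all genes were called higher, so counts of 0 lie near the background. None of 52 cytosolic ribosomal protein genes, 35 nuclear-encoded respiratory chain genes or 19 hepatocyte markers was called, with medians of -0.03, 0.00 and -0.01. Under size factors of the RLE type and under factors from protein-coding genes only, these medians were -0.05 and 0.00, -0.02 and 0.03, and -0.03 and 0.02, so their signs depend on the scaling. The median of 17 snoRNA host genes, which carry small nucleolar RNAs in their introns, was 0.30 with none called. Heat shock genes (12) and ER stress genes (18), read as signs of cell stress, had medians of -0.42 and -0.13 with none called.

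Markers of other liver cells were measured as lists too, since bulk tissue cannot tell fewer cells of a type from less RNA per cell. None of the markers of Kupffer cells (14), sinusoidal endothelium (12), stellate cells (12), cholangiocytes (7), T, B and NK cells (11), neutrophils (2) or red blood cells (5) was called. Over all genes 2.03% were higher and 0.029% lower, so counts of 0 in lists this small lie near the background. The medians were -0.62, 0.06, -0.22, 0.22, -0.04, -0.61 and -0.60, and that of the stellate cells was 0.05 without N979. Every Kupffer cell marker had a negative log2 difference, from -0.28 ± 0.22 in Clec4f to -1.43 ± 0.41 in Adgre1. Endothelial markers were mixed, from -0.70 ± 0.55 in Lyve1 to 0.71 ± 0.15 in Stab1. The summed Kupffer cell markers ranged from 221 to 518 CPM above and from 224 to 800 below, the endothelial markers from 288 to 502 above and from 222 to 379 below, and the red blood cell markers from 72.2 to 435 above and from 115 to 500 below, all overlapping. Of 12 markers of exocrine pancreas and adipose tissue, 4 were at 0 in every library. The part of cell composition in the differences was not tested.

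RNAs that lack a poly(A) tail, which a poly(A) kit should leave behind, were examined as a sign of library makeup. Rmrp and Rpph1 stood at 10.8 and 16.8 CPM in N979. The 14 structural RNAs measured, of a list of 19, summed to 54.1 CPM in N979, to at most 4.92 in the other livers above and to 1.06 to 2.70 below. Apart from N979, the sums overlapped between the sides. Their part in the other values of N979 was not tested.

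The labelled diets and sexes were then compared, which the threshold did not use. The side above held 4 of 6 females and 2 of 6 males (Fisher's exact test, two-sided, p = 0.567). It held 1 of 4 control livers, 3 of 4 on 1% oil and 2 of 4 on 5% oil, with Fisher's exact p of 0.486 for 1% against control and of 1 for 5% against control and for 5% against 1%. Gm43305, the class shares and depth were compared in 28 exact permutation tests (two-sided, on log2 values), which can reach p = 0.0286 with 4 against 4 and 0.00216 with 6 against 6. None passed Benjamini-Hochberg adjustment over the 28. The retained-intron share averaged 4.11% ± 1.40 in females and 2.59% ± 0.563 in males (SD, n = 6 each), with an exact permutation p of 0.0455, adjusted 0.515. Mitochondrial mRNA averaged 7.33% ± 1.80 in females and 10.2% ± 0.913 in males, with an exact permutation p of 0.0108, adjusted 0.303, the smallest of the family. Gm43305 averaged 2910 CPM ± 2518 in females and 947 ± 535 in males (SD, n = 6 each), with an exact permutation p of 0.117, adjusted 0.545. A p that misses the threshold does not show that the sexes or diets are alike at this number of animals.

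Across all genes, edgeR's quasi-likelihood test with Benjamini-Hochberg adjustment below 0.05 passed 340 genes for 5% against control (2.46%), 31 for 1% against control (0.224%), 184 for 5% against 1% (1.33%) and 1235 for female against male (8.94%). Of the 280 genes higher above the threshold, it passed 0, 0, 0 and 2 in these contrasts, the 2 being Klhdc8b and Hoxb4. At an unadjusted p under 0.05 the counts were 3, 18, 12 and 85, and DESeq2 with adjustment passed 0, 1, 3 and 41. The unadjusted counts are 1.07%, 6.43%, 4.29% and 30.4% of the 280, against 14.6%, 11.1%, 17.8% and 28.7% of all genes measured. The share of all genes that DESeq2 passed is not given here, so its counts cannot be set against a background. Each diet and each sex held livers of both sides. The 280 genes thus vary within diets and within sexes by the rule that chose them, which limits how often they can pass a diet or sex contrast. The count of 2 for female against male was 63 without N987, 48 without N980, 3 without N975, 1 without N971 and 0 without any 1 of N984, N983, N972, N979, N968, N967, N988 or N976. The shares of all genes that passed in those fits are not given here either. None of the 16 named genes passed edgeR in any contrast, with a smallest adjusted p of 0.117, while DESeq2 passed Fendrr and Gm48119 for female against male. For Gm43305, edgeR gave a log2 difference of -0.13 ± 0.75 for 5% against control, 1.04 ± 0.71 for 1% against control (adjusted p 0.623), -1.17 ± 0.75 for 5% against 1% (adjusted p 0.449) and 1.30 ± 0.63 for female against male (adjusted p 0.205). Leaving out 1 library gave 0.61 (without N984) to 2.01 (without N979) for 1% against control, -1.73 (without N975) to -0.69 (without N987) for 5% against 1%, and 0.70 (without N979) to 1.67 (without N987) for female against male. The authors' deposited table of differential expression lists 261 genes, and the diet contrast behind it is not named. None of the 261 was among the 280, where 2.03% of all genes measured were, and Gm43305 is not listed. The limit from spread within diets applies to this count too.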

How the data were processed

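Libraries came from 12 livers. The authors deposited expected (estimated) counts per gene and per transcript: each is an estimated count of reads, not normalized, and 11.7% of the gene values were not whole and were rounded. The submitters' processing notes name kallisto, edgeR, limma and the build GRCm39, with no versions, settings or roles. The deposited CPM table (11339 genes, each column scaled to the same total) served an alternative only. The authors' deposited comparison gives log2 fold changes and p-values, of which only the gene names were used. It also holds per-library values that the authors changed by a step no label describes; these score values as deposited were not used. Depth was 5291390 to 15674100 reads per library. Whether counting used strand is not given in the sources used here.

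Gene and transcript types were joined by Ensembl ID from GENCODE M21 (GRCm38): 48845 of 49398 genes and 138096 of 141450 transcripts matched. Coordinates and sequences are GRCm38, never GRCm39. Shares are of column totals. A gene or transcript was called at a log2 difference of 1 with no overlap of libraries, and an intron share at 5 points with no overlap among genes with 100 mean reads. Genes passing filterByExpr over the 6 groups of diet and sex (13814) were fitted in edgeR 4.0.16 (R 4.3.3) with TMM factors and terms for diet, sex and side of the threshold, and the side was described only. Diet and sex were tested with edgeR's quasi-likelihood test, exact permutation tests and Fisher's exact test, and with DESeq2 1.42.0 as an alternative. Log2 differences of intron and coding reads used a pseudocount of 0.5 CPM. P-values of edgeR, DESeq2 and the permutation tests set differences between labelled groups against the variation between these 12 animals. Fisher's exact test used only the counts of livers on each side. Alternatives covered scaling, filters, tool, terms and each library left out. The scripts were tested on simulated data with 200 changed genes. Named genes were Gm43305, the 15 largest increases and up to 10 decreases among called genes whose mean log2 CPM reached 1 and whose sign was the same in every diet, the 10 largest increases among transcripts by the same rule, and the 3 most abundant members of each list. Genes by intron share, from the 12 with the largest differences at 500 mean reads or more, and other called members of lists, were named after their values were seen. Some genes of these groups are not reported here. Of 529 symbols in 27 lists, 513 were in the table. The members and all lists were chosen with earlier results of these data known.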

Additional observations from a re-analysis of the deposited data

Results flagged for a closer look

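In 64 groups of 6 livers (16 measures and 16 named genes on each side of the threshold), 8 values lay further from the rest of their group than Dixon's criterion allows at the 95% level. The criterion's rate of about 1 in 20 holds for independent groups. These groups share libraries, Gm43305 set the sides, and the named genes were chosen for separated sides. That rate therefore does not apply, and the 8 values are a description. In 6 of them the distant value was that of N979, the control female. Its nonsense-mediated decay share within protein-coding genes was 6.66%, with 2.98% as the next highest liver above. Its shares of rRNA, miRNA, snRNA and misc_RNA transcripts were 7.96%, 0.175%, 0.0725% and 0.139%, against at most 0.387%, 0.0115%, 0.00102% and 0.00338% in the other livers above. Its level of Acrbp was 20.1 scaled CPM, with 9.84 as the next highest. Below the threshold, N987 had a miRNA transcript share of 0.0116%, with 0.00509% as the next highest, and N976 had the lowest Gm13632, at 0.492 scaled CPM, with 0.937 as the next. The cause of these values was not tested.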

How the results depend on the processing

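No paired analysis was possible because replicate names are animal numbers that no groups share. Against 280 higher and 4 lower genes, RLE factors and DESeq2 each gave 268 and 4, and factors from protein-coding genes only gave 328 and 4. The count of higher genes was 564, with 62 lower, at a log2 difference of at least 0.5. The number lower was 7 with no filter beyond 1 read, 1 with a filter of 50 reads in 4 libraries and 7 with no diet term. Leaving out 1 library gave 270 to 493 higher and 6 to 31 lower genes, the extremes being without N980 and N975 for higher and without N984 and N972 for lower. The rule of no overlap is easier to meet with 1 library fewer, which by itself can raise these counts. With Gm43305 counted, the long noncoding share differed by 0.605 to 0.802 points when 1 library was left out. The retained-intron share, also with Gm43305, then differed by 1.99 to 2.41 points. Because Gm43305 set the sides, it adds to both, and without it the long noncoding share differed by 0.452 points over all libraries. Genes with a higher retained-intron share numbered 113 at 500 mean reads and 220 at 10 points, both with fewer genes able to pass. They numbered 382 to 556 without 1 library, where no overlap is easier to meet. The named genes and Gm43305 kept their sign in all 335 values under the alternatives. That was nearly fixed beforehand. The named genes were chosen for separated sides and the same sign in every diet, and Gm43305 set the sides. Of 68 tests of diet or sex on the named genes and Gm43305, 0 passed edgeR, DESeq2 passed 2, edgeR without a filter passed 19, and leaving out 1 library gave 0 to 1 (Gm48119 without N980, Fendrr without N987). The shares of all genes that passed under these alternatives are not given here. The cause was not tested. Without the filter the adjusted p of Gm43305 in edgeR's quasi-likelihood test was 1.98e-09 for female against male. With the filter that test gave an adjusted p of 0.205, and the exact permutation test gave p = 0.117. The unfiltered value thus depends on the setting and is not read as a difference between the sexes. Its difference for 5% against control was -0.13, with a range of -0.685 to 0.592 when 1 library was left out: 0.592 without N979, 0.196 without N988 and 0.359 without N987. The alternatives on intron share, and transcripts without N979, were chosen after seeing the data. Depth limits genes near 1 CPM, which rest on few reads in the shallowest libraries.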

Other observations

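Genes of fatty acid and cholesterol synthesis were measured on the same libraries. None of 24 was called, and their median log2 difference was -0.60, or -0.29 without N979. Scd1, which makes monounsaturated fatty acids, ranged from 6397 to 20003 CPM above and from 7570 to 30741 below, and Fasn, the fatty acid synthase, from 248 to 2643 above and from 518 to 2228 below, so both overlapped. Of 20 immediate early genes none was called, with a median of -0.02, while Zfp36, which destabilises mRNAs with AU-rich ends, had a difference of 1.21 ± 0.32 and ranged from 35.6 to 134 CPM above and from 14.2 to 76.1 below. Of 20 interferon response genes none was called, with a median of -0.19, and Stat2, which carries the interferon signal to the nucleus, was at 57.8 to 155 CPM above and 36.2 to 56.1 below with a difference of 0.97 ± 0.18. Targets of PPARa (22) and circadian clock genes (20) had medians of -0.06 and 0.15 with none called. Over all genes 2.03% were higher and 0.029% lower, so counts of 0 in these lists lie near the background.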
